A study of Mus musculus with 2 samples.

Results

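The cells described here are alveolar type 2 (AT2) cells of the Cre library in which no Sox9 transcript was captured. They numbered 734 of the 30408 barcodes of the series, 16821 of them in the Cre library and 13587 in the control library. A cell was a member when it had at least 200 genes, at least 3000 UMIs (unique molecular identifiers, which count captured transcripts) and at most 20% mitochondrial UMIs, and met limits on its marker genes. Sftpc had to supply at least 2% of its UMIs, Lamp3, Slc34a2, Abca3 and Etv5 together at least 2 UMIs, and Scgb1a1 under 2%, with no UMI of Ptprc, Pecam1 or Sox9. These values chose the cells, so they are given below only as a description.

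The mice were 5 weeks old and carried Nkx2.1 Cre;Lkb1f/f (Cre) or Lkb1f/f (control), and the cells came from total lung. Lkb1 is the common name of Stk11, and the floxed alleles were shared by both groups, so the control differs from the Cre group by the driver. The driver follows Nkx2-1, a transcription factor of the lung epithelial lineage, and the labels do not say which cells had recombined. Each genotype is a single library made from 3 pooled mice. There was thus no replicate, no test was possible, and an effect of genotype cannot be told apart from one of the animals or the capture. The members (Cre Sox9-0 cells) were set against 690 cells of the same library that passed every limit but had at least 1 Sox9 UMI (Cre Sox9-positive cells), and against 1123 cells of the control library that passed every limit (control Sox9-0 cells). The first comparison asks how AT2 cells with and without captured Sox9 differed within the Cre lung, and the second how AT2 cells without Sox9 differed between the genotypes.

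AT2 cells are the cuboidal cells of the alveolus that make and recycle surfactant and that replace the flat AT1 cells of gas exchange. LKB1 is a kinase that activates AMPK, a sensor of low energy, and its relatives, among them the salt-inducible kinases (SIKs), which hold the CRTC coactivators of the transcription factor CREB in the cytoplasm. SOX9 is a transcription factor of the embryonic distal lung tip that mature AT2 cells normally carry little of.

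The members had a median of 7815 UMIs per cell (range 3060 to 25785) and a summed depth of 6063743 UMIs, against a median of 8474 and a sum of 6405023 UMIs in Cre Sox9-positive cells and a median of 10620 and a sum of 12026685 UMIs in control Sox9-0 cells. Median mitochondrial shares were 6.16%, 6.35% and 6.49% in Cre Sox9-0, Cre Sox9-positive and control Sox9-0 cells. Across the libraries 68 barcodes occurred in both, 1 of them a member, and none was shared between the members and the control Sox9-0 cells. A doublet caller marked 11 members (1.5%), 17 Cre Sox9-positive cells (2.46%) and 10 control Sox9-0 cells (0.890%), which were kept. Markers of alveolar macrophages summed to 149 CPM in the members, 182 CPM in Cre Sox9-positive and 16.7 CPM in control Sox9-0 cells. Haemoglobin and other erythroid markers summed to 4895, 7716 and 2183 CPM in the same order of groups, and mesenchymal markers to 360, 301 and 212 CPM. CPM is a gene's UMIs per 1000000 UMIs, summed over all cells of a group, and the part of these other cell types in the results was not tested.

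The AT2 gate of the Cre library held 1424 cells, of which 51.5% (48.9 to 54.2) had no Sox9 UMI, against 1126 gate cells and 99.7% (99.2 to 99.9) in the control library. Ranges in parentheses after a share or a ratio are its 95% interval, by exact methods that allow for counting error alone. The share without Sox9 depended on depth. It was 57.5% (142 of 247 cells; 51.1 to 63.7) at 3000 to under 6000 UMIs, 52.8% (523 of 990; 49.7 to 56.0) at 6000 to under 12000 UMIs and 36.9% (69 of 187; 30.0 to 44.2) at 12000 UMIs or more. With each cell thinned to 3000 UMIs it was 69.3%. Among the other gate cells of the Cre library, 233 had 1 Sox9 UMI, 142 had 2, 85 had 3, 68 had 4, 51 had 5 and 111 had 6 or more, up to 28. A count of 0 in the Cre library therefore does not separate cells without Sox9 RNA from cells whose Sox9 RNA was not captured.

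**Figure D1:**
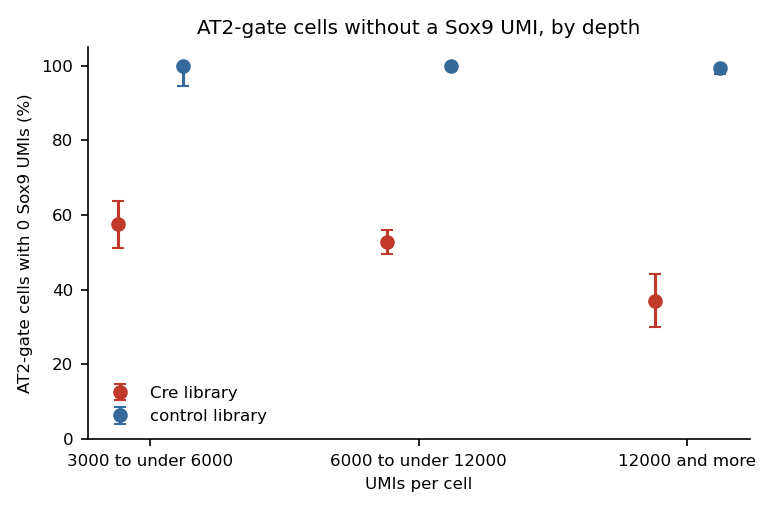
Share of AT2-gate cells with no Sox9 UMI (y axis, %) in 3 ranges of UMIs per cell (x axis), with the Cre library in red to the left of the control library in blue. Points are shares and bars exact 95% intervals. The Cre shares run 57.5%, 52.8% and 36.9% from low to high depth, and the control shares lie at 99.4% or above.

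The members just inside a limit were few and are given with no test. The 5 members with 2% to under 3% Sftpc had 9481 CPM of Retnla and 1188 CPM of Sftpb, and the 9 cells with 1% to under 2% had 19741 and 1154 CPM. The 37 members with 3000 to under 4000 UMIs had 14292 CPM of Retnla, and the 26 cells with 2000 to under 3000 UMIs had 10949 CPM. The Sox9 limit cut through many more cells. The 734 members had 9513 CPM of Retnla and 6847 CPM of Sftpb, and the 233 cells with exactly 1 Sox9 UMI had 15996 and 5209 CPM.

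Free RNA from lysed cells gives UMIs in droplets of other cells, and a B cell gate was used to gauge it. It held 506 Cre cells with a median of 5071 UMIs and 1166 control cells with a median of 4289 UMIs, chosen by at least 3 UMIs of Cd79a, Cd79b and Ms4a1 and none of Epcam. The gate was not pure. Alveolar macrophage markers summed to 4258 CPM in its Cre cells and 447 CPM in its control cells.

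Stk11, the targeted gene (ENSMUSG00000003068, chromosome 10, 80115803 to 80130682, plus strand, GRCm38), stood at 30.8 CPM in the members, 29.8 CPM in Cre Sox9-positive and 49.5 CPM in control Sox9-0 cells. The ratio of the members to the control cells was 0.623 (0.526 to 0.736), and that to the Cre Sox9-positive cells was 1.03 (0.841 to 1.27). At 3000 UMIs per cell, Stk11 was seen in 10.6% of members, 8.99% of Cre Sox9-positive and 13.2% of control Sox9-0 cells. The B cell gates, outside the lineage of the driver, had 54.2 CPM in the Cre and 47.8 CPM in the control library. The counted tags lie at the 3′ ends of transcripts, and the labels do not give the deleted part, so these levels check little. Of 22 measured genes of the LKB1, AMPK and SIK pathway, 1 was called higher and none lower in the members than in control Sox9-0 cells. It was Nuak1, an AMPK-related kinase, at 7.26 CPM in the members and 2.16 CPM in control cells, a ratio of 3.36 (2.02 to 5.68), and at 11.3 CPM in the B cell gate of the Cre library. Sik1, a SIK that CREB itself induces, had a ratio of 1.91 (1.62 to 2.25) and was not called.

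A gene counted as measured with at least 50 UMIs over both sums, and as called higher or lower when its ratio lay at least 2-fold from the median ratio of all measured genes. That median was 1.15 (0.21 on the log2 scale) for members over control Sox9-0 cells and 0.977 (-0.03) for members over Cre Sox9-positive cells, and list medians below are log2 ratios less these values. Against control Sox9-0 cells, 304 of 10251 measured genes (2.97%) were called higher and 252 (2.46%) lower. Against Cre Sox9-positive cells, 55 of 9806 measured genes (0.561%) were called higher and 91 (0.928%) lower. These shares, for each comparison, are the background for the counts of called genes in the gene lists. Cre Sox9-positive over control Sox9-0 cells gave 424 higher (4.1%) and 352 lower (3.41%) of 10337. The 3 comparisons share cells, so their counts are set side by side and no overlap is drawn from them.

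The members carried the surfactant programme of AT2 cells. Sftpb, a surfactant protein that the gate did not use, was seen in 99.5% of members at 3000 UMIs per cell, 99.9% of Cre Sox9-positive and 99.9% of control Sox9-0 cells. Its summed level was 6847 CPM in the members, 5027 CPM in Cre Sox9-positive and 8260 CPM in control Sox9-0 cells. Single members ranged from 0 to 20005 CPM of Sftpb with a median of 7052, against 195 to 14137 CPM with a median of 5036 in Cre Sox9-positive and 241 to 16937 CPM with a median of 8249 in control Sox9-0 cells, so the cells of the 3 groups overlapped. Sftpd, a collectin of the alveolar lining, had 7507 CPM in the members, 8200 CPM in Cre Sox9-positive and 4594 CPM in control cells, a ratio to control of 1.63 (1.61 to 1.65). Sftpa1, the other collectin, had 21342, 20504 and 26298 CPM in Cre Sox9-0, Cre Sox9-positive and control Sox9-0 cells. Nkx2-1 had 300 CPM in the members and 214 CPM in control cells, a ratio of 1.41 (1.32 to 1.49).

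Of the 22 genes of the AT2 surfactant and identity list, all measured, none was called higher and 1 lower than in control Sox9-0 cells, with a median of -0.39. Only 2 of the 22, Sftpd and Nkx2-1, lay above the all-gene median. The called gene was Lyz2, a lysozyme of AT2 cells and macrophages, at 11784 CPM in the members, 13566 CPM in Cre Sox9-positive and 27718 CPM in control Sox9-0 cells, a ratio to control of 0.425 (0.422 to 0.429). Hc, the gene of complement C5, had a ratio of 0.619 (0.599 to 0.640) and Napsa, a protease that processes surfactant protein B, one of 0.711 (0.695 to 0.727). Of the 17 genes of the AT1 list, 2 were called higher and 2 lower, with a median of -0.07. Ager, the receptor that AT1 cells carry in abundance, had 1111 CPM in the members and 1170 CPM in control cells. Of 15 measured genes of the transitional alveolar state, which injured AT2 cells pass through on the way to AT1 cells, 1 was called higher, with a median of 0.22. It was Fn1, fibronectin, at 54.1 CPM in the members and 10.5 CPM in control cells, but at 353 CPM in the B cell gate of the Cre library. Krt8, a keratin of that state, had 356 CPM in the members, 341 CPM in Cre Sox9-positive and 208 CPM in control cells, a ratio to control of 1.71 (1.61 to 1.81) that was not called. Of 13 distal tip progenitor genes other than Sox9, 5 were measured and none was called, with a median of 0.00.

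The genes furthest above control in the members ranged from genes with 3 UMIs in control Sox9-0 cells, such as Rbm24, to genes that most control cells carried, such as Gclc, with a UMI in 81.2% of them. Retnla, a secreted resistin-like protein of type 2 immune responses (ENSMUSG00000061100, chromosome 16, 48842551 to 48844461), had 57683 UMIs and 9513 CPM in the members, 110670 UMIs and 17279 CPM in Cre Sox9-positive cells, and 683 UMIs and 56.8 CPM in control Sox9-0 cells. The ratio of members to control was 168 (155 to 181). At 3000 UMIs per cell it was seen in 81.6% (78.6 to 84.3) of members, 85.1% of Cre Sox9-positive and 4.90% of control Sox9-0 cells, against 26.5% of the Cre and 1.03% of the control B cell gate. Unthinned, the shares were 90.2%, 91.9% and 12.2% in Cre Sox9-0, Cre Sox9-positive and control Sox9-0 cells. Single members ranged from 0 to 175152 CPM of Retnla with a median of 3293, and the 95th percentile of control Sox9-0 cells was 135 CPM. The 5 members with most Retnla held 9.62% of its UMIs. Without the 87 members of a cluster led by Cxcl5 and cell cycle genes, the ratio was 106. By depth of the cells it was 225 (126 to 451) at 3000 to under 6000 UMIs, 124 (113 to 136) at 6000 to under 12000 and 368 (317 to 430) at 12000 or more.

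Rbm24, an RNA-binding regulator of splicing, had 463 UMIs in the members, 455 in Cre Sox9-positive and 3 in control Sox9-0 cells, which is 76.4, 71.0 and 0.249 CPM. Its ratio to control was 306 (104 to 1490), and 234 of the members had a UMI of it. With each cell thinned to 3000 UMIs the Rbm24 ratio was 88.2. Rgs4, which speeds the switching off of G proteins, had 320, 542 and 5 UMIs in Cre Sox9-0, Cre Sox9-positive and control Sox9-0 cells, with a ratio of 127 (53.8 to 394), or 374 when each cell's CPM was weighted equally. Most members had no Rgs4 UMI, as it was seen in 0.913% to 31.0% of the cells of the 5 clusters described below. The share was lowest in the cluster of 219 members led by haemoglobin genes, with 2 cells. Sorbs2, a cytoskeletal adaptor, had 357, 691 and 10 UMIs, with a ratio of 70.8 (38.1 to 149). Cxcl5, a chemokine that attracts neutrophils, had a ratio of 319 (109 to 1554) from 483, 528 and 3 UMIs, but it was no feature of the typical member. Its UMIs lay in 20 members, 254 of them in a single cell, and 77.8% in 5 cells. Without those 5 cells' UMIs its level in the members was 17.6 CPM, and without the cluster it led, the ratio was 10.8.

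Slc26a4, the anion exchanger pendrin, had 165 CPM in the members, 298 CPM in Cre Sox9-positive and 9.31 CPM in control Sox9-0 cells, a ratio to control of 17.7 (14.6 to 21.7), which was 9.71 without the cluster led by Cxcl5 and cell cycle genes. Slc38a4, an amino acid transporter, had 130, 151 and 18.0 CPM in the same groups, with a ratio of 7.24 (6.22 to 8.46). From the lowest to the highest of the 3 depth ranges the Slc38a4 ratio was 18.7 (6.25 to 91.8), 7.0 (5.8 to 8.51) and 4.73 (3.42 to 6.54). Gclc is the catalytic subunit of the enzyme that sets the rate of glutathione synthesis (ENSMUSG00000032350, chromosome 9, 77754535 to 77794485). Of these genes it was the most widely seen in the members. It had 1427 CPM in the members, 1815 CPM in Cre Sox9-positive and 294 CPM in control Sox9-0 cells, a ratio to control of 4.85 (4.66 to 5.04). At 3000 UMIs per cell Gclc was seen in 91.3% of members, 94.3% of Cre Sox9-positive and 49.6% of control cells, against 15.8% and 9.69% of the Cre and control B cell gates. The Gclc ratio was 3.92 (3.24 to 4.78), 5.19 (4.93 to 5.47) and 4.49 (4.18 to 4.83) from the lowest to the highest of the 3 depth ranges. The median member had 1167 CPM of Gclc and the median control Sox9-0 cell 206 CPM.

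Of the other genes named among the 15 furthest above control, Areg, the growth factor amphiregulin, had 500 CPM in the members, 408 CPM in Cre Sox9-positive and 106 CPM in control cells, a ratio of 4.73 (4.43 to 5.05), which was 2.29 without a cluster of 178 members led by Ereg, Atf3 and Areg and 11.3 in cells of 3000 to under 6000 UMIs. Pmvk, phosphomevalonate kinase of the sterol pathway, had 698, 677 and 149 CPM. Lrrk2, a kinase linked to lysosomes and Parkinson disease, had 499, 485 and 136 CPM, and 678 of the members had a UMI of it. Phlda1, a small protein induced by growth signals, had 762, 792 and 201 CPM. Nnat, neuronatin, had 93.5, 55.1 and 30.1 CPM. For these genes other than Nnat, the members and the Cre Sox9-positive cells stood closer to each other than either did to control. Dmkn, the secreted protein dermokine, had 149 CPM in the members, 42.0 CPM in Cre Sox9-positive and 17.6 CPM in control cells, a ratio to control of 8.48 (7.29 to 9.89). Without a cluster of 219 members led by haemoglobin genes that ratio was 5.33.

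The genes furthest below control included enzymes of xenobiotic and polyol metabolism and muscle-type isoforms that control AT2 cells expressed. Nupr1, a stress-induced chromatin protein, had 62.7 CPM in the members, 46.2 CPM in Cre Sox9-positive and 486 CPM in control Sox9-0 cells, a ratio to control of 0.129 (0.116 to 0.143). It was seen at 3000 UMIs in 12.4% of members, 7.83% of Cre Sox9-positive and 63.8% of control cells, against 6.52% and 6.86% of the Cre and control B cell gates. Cox6a2, the heart and muscle form of a cytochrome oxidase subunit, had 31.3, 18.0 and 237 CPM in Cre Sox9-0, Cre Sox9-positive and control Sox9-0 cells, with a ratio of 0.132 (0.114 to 0.153). Myh7, a cardiac myosin heavy chain, had 10.4, 7.34 and 79.8 CPM, with a ratio of 0.130 (0.0992 to 0.168). Bex2, a small adaptor protein, had 42.9, 36.4 and 228 CPM, with a ratio of 0.188 (0.165 to 0.213), or 0.104 without the cluster led by haemoglobin genes. In each of these 4 genes the members were far below control, and Nupr1 and Cox6a2 were above the Cre Sox9-positive level, at 1.36 (1.16 to 1.58) and 1.75 (1.38 to 2.22).

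Cyp2b10, a xenobiotic cytochrome P450, had 6.43 CPM in the members, 9.68 CPM in Cre Sox9-positive and 62.4 CPM in control cells, a ratio to control of 0.103 (0.0727 to 0.142), and the 39 UMIs of the members came from 21 cells. Of those UMIs, 59.0% lay in 5 members. With each cell thinned to 3000 UMIs the Cyp2b10 ratio was 0.0554, and in cells of 12000 UMIs or more it was 0.341 (0.210 to 0.526). Ces1d, a carboxylesterase with close paralogues among which reads may be split, had 120, 86.7 and 365 CPM, with a ratio of 0.329 (0.304 to 0.356). Sord, sorbitol dehydrogenase, had a ratio of 0.284 (0.234 to 0.341). Nrn1, neuritin, had a ratio of 0.201 (0.152 to 0.260), or 0.121 without the cluster led by haemoglobin genes. Of 10 measured P450 and xenobiotic enzymes, none was called higher than in control cells. With a list median of -1.13, 5 were called lower, against 2.46% of all measured genes. They were Cyp2b10, Ces1d, Sord, the paraoxonase Pon1 at 0.181 (0.134 to 0.240) and the monooxygenase Fmo2 at 0.382 (0.310 to 0.467). Por, the reductase that serves all microsomal P450s, had a ratio of 0.963 (0.890 to 1.04). The remaining named genes were Atp7b, a copper pump, Scgb1c1, a secretoglobin, C6, a complement component, Gas6, a ligand of phagocytic receptors, Cpm, a carboxypeptidase of the AT2 surface, and Apoc1, an apolipoprotein, whose ratios ran from 0.322 for Atp7b to 0.395 for Cpm.

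**Figure D2:**
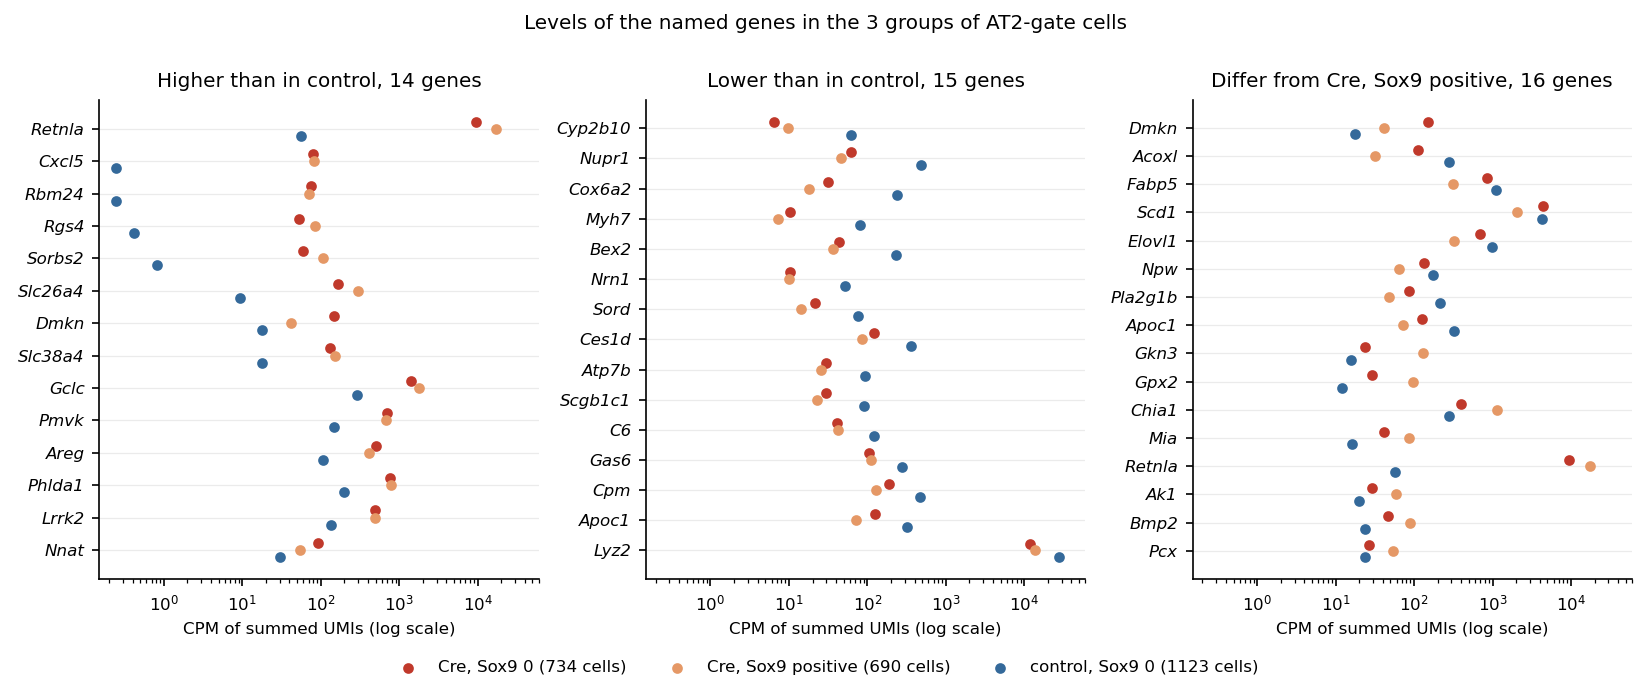
CPM of summed UMIs on a log axis for 14 of the 15 genes furthest above and the 15 furthest below control Sox9-0 cells and for the 16 genes that differ most from Cre Sox9-positive cells, with the members in red, Cre Sox9-positive cells in orange and control Sox9-0 cells in blue. In the left and middle panels red and orange lie together and apart from blue for most genes; in the right panel red lies nearer blue than orange does for genes such as Scd1 (4418, 2072 and 4301 CPM).

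In sums over 2 sets of genes, most members differed from control within single cells. The sets used here were 9 genes higher in AT2 cells of the Cre library (Cxcl5, Rgs4, Slc26a4, Gclc, Gpx2, Rbm24, Sorbs2, Slc38a4 and Rgs10) and 12 lower ones (Cyp2b10, Pon1, Sord, Ces1d, Spink5, Nupr1, Cox6a2, Myh7, Acoxl, Bex2, Nrn1 and Scgb1c1), both drawn from earlier results of these libraries, so their direction supports nothing. With Retnla, all 10 higher genes were called higher than in control cells (median 4.94) and all 12 lower ones lower (median -2.64), which follows from that choice. At 3000 UMIs per cell, the 9 genes had a median of 6 UMIs in the members (interquartile range 3 to 9), 8 in Cre Sox9-positive (5 to 12) and 1 in control Sox9-0 cells (0 to 2). None of these UMIs was found in 2.45% of members, 1.45% of Cre Sox9-positive and 39.6% of control cells. Gclc weighed most in the sum of the 9, at 1427 CPM in the members, against 76.4 for Rbm24, 58.9 for Sorbs2 and 52.8 for Rgs4. The sum thus does not show how many of the 9 genes a single cell carried. The 12 genes had a median of 1 UMI in the members, 0 in Cre Sox9-positive and 6 in control cells, with none in 34.3%, 50.4% and 1.34% of these groups. More UMIs of the 9 genes than of the 12 were found in 85.7% (83.0 to 88.1) of members, 94.5% of Cre Sox9-positive and 4.63% of control cells. The opposite held in 66 members (8.99%; 7.02 to 11.3), 2.75% of Cre Sox9-positive and 92.0% of control cells. Cells with none of the 9 and at least 3 UMIs of the 12 numbered 7 among the members, 1 among Cre Sox9-positive and 382 among control Sox9-0 cells.

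**Figure D3:**
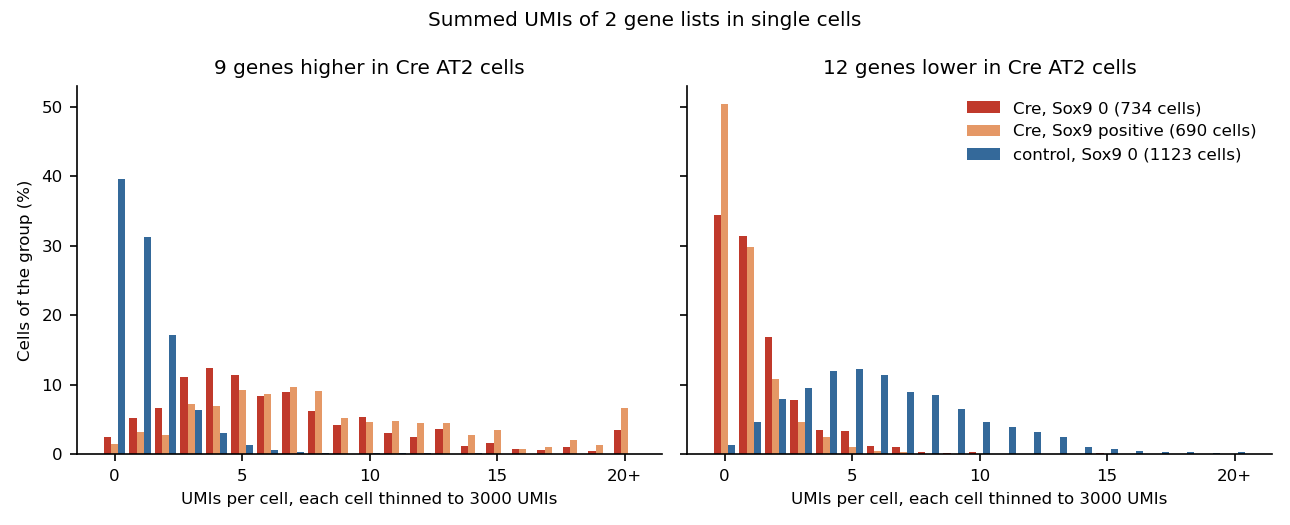
Share of cells (y axis, %) by the summed UMIs per cell (x axis, each cell thinned to 3000 UMIs) of 9 genes higher and 12 genes lower in AT2 cells of the Cre library, for the members (red), Cre Sox9-positive (orange) and control Sox9-0 cells (blue). Medians are 6, 8 and 1 UMIs on the left and 1, 0 and 6 UMIs on the right, and the red distribution lies near the orange one with some overlap with the blue.

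Genes that CREB and its CRTC coactivators induce stood higher as a group in the members than in control Sox9-0 cells. Of 14 measured genes of 17 listed, 8 were called higher and none lower, against a background of 2.97% of all measured genes called higher. The median was 1.18, and 14 of the 14 lay above the all-gene median. Besides Areg, the called genes were the nuclear receptors Nr4a1 at 2.76 (2.54 to 2.99), Nr4a2 at 4.0 (3.25 to 4.93) and Nr4a3 at 3.90 (2.99 to 5.11), the CREB-family factor Crem at 2.46 (2.07 to 2.94), the cAMP-degrading phosphodiesterases Pde4b at 5.51 (4.11 to 7.47) and Pde10a at 240 (42.3 to 9556), and Ppargc1a, a coactivator of mitochondrial genes, at 3.04 (2.43 to 3.81). Pde10a had 121 UMIs in the members, 159 in Cre Sox9-positive and 1 in control cells. Areg, Pde10a and Ppargc1a stood above the B cell gate of the Cre library, Ppargc1a for example at 33.3 CPM in the members and 2.20 CPM in that gate. The other 5 stood below it, such as Nr4a1 at 231 CPM in the members and 336 CPM in the gate and Pde4b at 28.9 and 180 CPM, so for them free RNA cannot be told apart from the cells' own. Nr4a1 was seen at 3000 UMIs in 37.5% of members, 37.1% of Cre Sox9-positive and 18.4% of control cells, against 37.9% and 31.3% of the Cre and control B cell gates. Immediate early and heat shock genes, which tissue dissociation induces, moved the same way with a median of 0.38 and 2 of 17 called higher, Hspa1a at 2.44 (2.15 to 2.75) and Hspa1b at 3.92 (3.41 to 4.50). Their part in the CREB list was not tested.

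The promoters of 3 of these genes are shown because CREB binds a known motif, the 8-letter palindrome TGACGTCA or its shorter core TGACG, searched on either strand, with TGACGTCA itself holding the core on both strands. They are the 250 bases before the start, 5′ to 3′ on the gene's strand, from RefSeq's table for GRCm38.p6, with the motifs in capitals. Areg lies at chr5:91139349-91139598 on the plus strand, Nr4a2 at chr2:57124004-57124253 on the minus strand and Nr4a1 at chr15:101266596-101266845 on the plus strand.
Areg: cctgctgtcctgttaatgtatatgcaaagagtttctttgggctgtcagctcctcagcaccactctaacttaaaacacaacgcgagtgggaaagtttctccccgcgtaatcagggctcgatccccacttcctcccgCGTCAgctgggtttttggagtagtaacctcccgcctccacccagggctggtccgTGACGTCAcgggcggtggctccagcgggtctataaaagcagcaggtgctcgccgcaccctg
Nr4a2: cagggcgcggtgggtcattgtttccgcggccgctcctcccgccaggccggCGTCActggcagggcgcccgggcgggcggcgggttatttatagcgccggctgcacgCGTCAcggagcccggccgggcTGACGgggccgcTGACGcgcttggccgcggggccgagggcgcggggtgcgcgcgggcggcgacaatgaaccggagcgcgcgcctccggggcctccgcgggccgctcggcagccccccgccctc
Nr4a1: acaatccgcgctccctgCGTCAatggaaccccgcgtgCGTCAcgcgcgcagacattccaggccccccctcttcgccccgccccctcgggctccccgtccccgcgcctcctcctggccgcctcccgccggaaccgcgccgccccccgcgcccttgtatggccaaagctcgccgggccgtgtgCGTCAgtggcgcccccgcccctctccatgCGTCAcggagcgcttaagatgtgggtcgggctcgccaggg
The Areg stretch holds 1 full palindrome and 1 further core. The stretches of Nr4a2 and Nr4a1 each hold 4 cores and no palindrome. In windows from 250 bases before to 50 bases after the start, the palindrome was found in 2.03% of 27025 genes' promoters and in 2 of the 15 listed genes that had a promoter in the table (Areg and Dusp1). The core was found in 23.0% of all promoters, in 12 of these 15, and in 6 of the 7 that were called higher. The list was made of genes that CREB induces, so these shares depend on that choice and say nothing about these cells. A match describes letters, not binding.

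Chemokines and other NF-kB genes were also higher as a group against control, although much of this came from few cells. The median of the list was 0.91, and 0.61 without the cluster led by Cxcl5 and cell cycle genes. Of 16 measured genes none was called lower and 7 were called higher, against 2.97% of all measured genes. They were Cxcl1 at 3.78 (3.08 to 4.65), Cxcl2, Cxcl3, Cxcl5, Ccl2, Saa3 and Tnfaip3, an inhibitor of NF-kB, at 3.25 (2.63 to 4.04). The 84 UMIs of Saa3 lay in 5 members, and 47.1% of those of Cxcl1 in 5. Lcn2, an iron-trapping antimicrobial protein, had 1725 CPM in the members, 2052 CPM in Cre Sox9-positive and 790 CPM in control Sox9-0 cells, a ratio to control of 2.18 (2.12 to 2.24) that was not called. Cxcl2, Ccl2, Saa3 and Tnfaip3 stood below the Cre B cell gate, Cxcl2 for example at 71.2 CPM in the members and 740 CPM in the gate.

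Of 7 measured type 2 response genes, 4 were called higher, against 2.97% of all measured genes: Retnla, Il33, Il4ra and Chil3. The list median was 1.2. Il33, an alarmin that activates type 2 lymphocytes, had 624 CPM in the members, 869 CPM in Cre Sox9-positive and 236 CPM in control Sox9-0 cells, a ratio to control of 2.65 (2.52 to 2.78). It was seen at 3000 UMIs in 72.3% of members, 80.0% of Cre Sox9-positive and 41.3% of control cells, against 3.36% and 0.772% of the Cre and control B cell gates. Chil3, a chitinase-like protein of macrophages with a close paralogue in Chil4, had 135 CPM in the members but 3866 CPM in the Cre B cell gate, and was seen in 33.2% of members and 39.9% of that gate, so free RNA cannot be told apart from the cells' own. That gate also held macrophage markers. Il4ra, the interleukin-4 receptor, had 38.4 CPM in the members and 68.3 CPM in that gate.

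Among 15 measured glutathione and NRF2 genes, 3 were called higher and 2 lower, with a median of 0.10. Besides Gclc, the higher ones were Srxn1, which restores peroxiredoxins, at 2.32 (1.76 to 3.06) and the glutathione peroxidase Gpx2 at 2.40 (1.91 to 3.01). Gclm, the partner subunit of Gclc, had 31.8 CPM in the members and 20.5 CPM in control cells, a ratio of 1.55 (1.28 to 1.88). The lower ones were the transferase Gsta3 at 0.206 (0.140 to 0.293) and catalase, Cat, at 0.535 (0.506 to 0.566). Hmox1, a common NRF2 target, had a ratio of 0.953 (0.835 to 1.09). The 2 subunits of the enzyme that heads glutathione synthesis thus differed in size of ratio, and the list did not move as a group.

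The lists of lipid and energy genes differed little from control. Genes outside these lists did differ, such as Pmvk of the sterol pathway at 4.69 (4.44 to 4.96) and the apolipoprotein Apoc1 at 0.390 (0.360 to 0.421). None of 20 measured genes of fatty acid, sterol and phospholipid synthesis was called, with a median of -0.16. None of 13 glycolytic or 19 nuclear oxidative phosphorylation genes was called, with medians of 0.22 and 0.13. Scd1, a desaturase of surfactant lipid synthesis, had 4418 CPM in the members and 4301 CPM in control Sox9-0 cells, a ratio of 1.03 (1.01 to 1.04). Of 14 fatty acid oxidation genes, Pdk4 was called higher at 2.75 (1.79 to 4.26) and Acoxl, a relative of peroxisomal acyl-CoA oxidase, lower at 0.401 (0.369 to 0.436).

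The other lists had few called genes against control. Of 7 measured airway secretory genes, the naphthalene-metabolising P450 Cyp2f2 was called higher at 2.31 (1.98 to 2.69), the antibody transporter Pigr higher at 11 (6.84 to 18.4), and Bpifa1, an airway antimicrobial protein, lower at 0.202 (0.0629 to 0.505), with a median of 0.00. Of 6 regulators of G protein signalling, Rgs4 and Rgs10 were called higher, with a median of 0.51. Rgs10 had 276 CPM in the members, 338 CPM in Cre Sox9-positive and 48.6 CPM in control Sox9-0 cells, a ratio to control of 5.67 (5.16 to 6.24). Of 15 ion channels and transporters, Slc26a4 and Slc38a4 were called higher, with a median of 0.13. Of 19 growth factor and feedback genes, Ereg was called higher and Tgfa, another ligand of the same receptor family, lower at 0.499 (0.345 to 0.706), with a median of 0.08. The p53 targets, with 1 of 10 called higher (Phlda3), and the unfolded protein and integrated stress response genes, with 1 of 15 (Psat1), had medians of 0.17 and 0.20. The MHC class II genes, with 1 of 8 called higher (Ctss), and the MHC class I and interferon genes, with 1 of 13 called lower (Gbp2), had medians of 0.30 and 0.12. Without the UMIs of the 5 highest cells of each group, Gbp2 stood at 1.65 CPM in the members and 2.83 CPM in control cells. Ctss stood at 9.07 CPM in the members and 492 CPM in the Cre B cell gate.

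**Figure D4:**
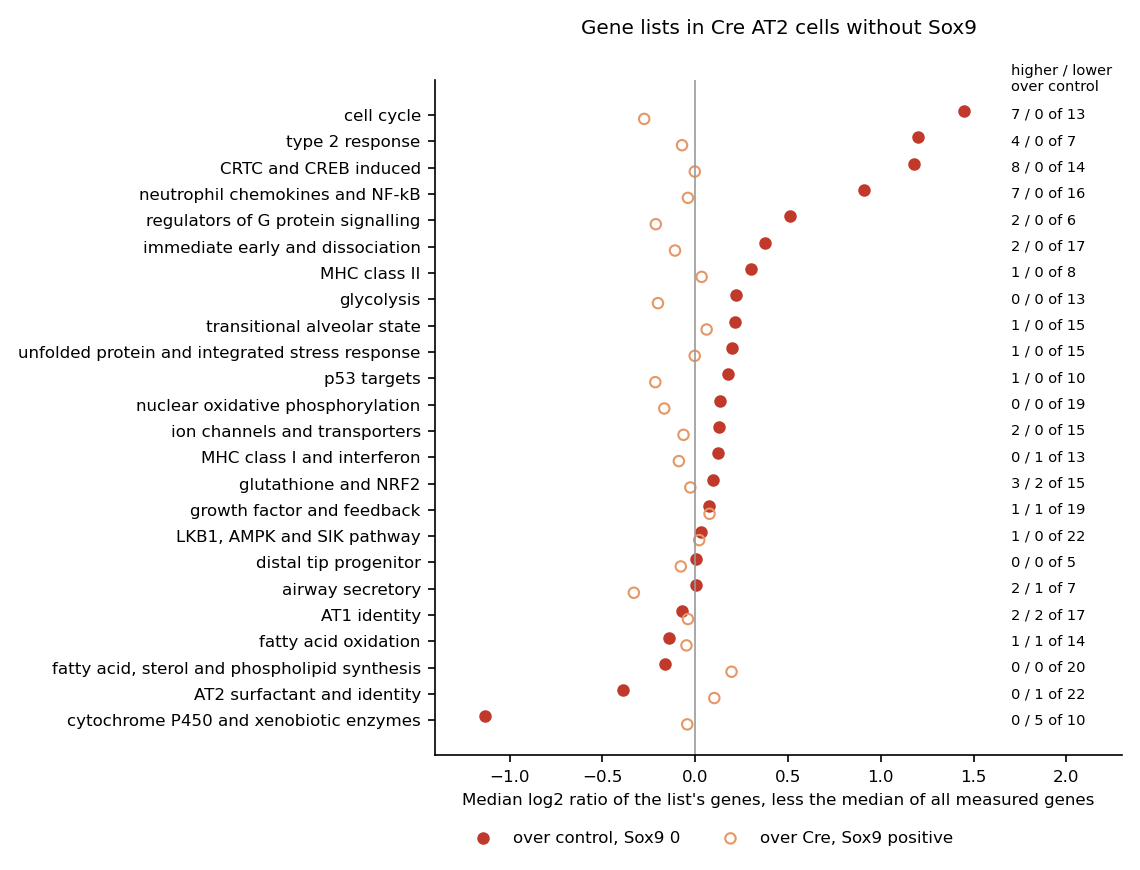
Median log2 ratio of each gene list, other than the sets of genes higher and lower in Cre AT2 cells taken from earlier results, less the median of all measured genes (x axis) for the members over control Sox9-0 cells (filled red) and over Cre Sox9-positive cells (open orange), with the number of listed genes called higher and lower than control at the right. The red points of the cell cycle (1.45), type 2 (1.2), CREB (1.18) and chemokine (0.91) lists lie to the right and that of the xenobiotic enzymes (-1.13) to the left, and the orange points lie between -0.33 and 0.20.

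Against Cre Sox9-positive cells of the same library, the members had more RNA of several lipid genes and less of several secreted proteins. Of the 22 AT2 identity genes, 2 were called higher, Scd1 and Fabp5, and none lower, against a background of 0.561% of all measured genes called higher. Scd1 had 4418 CPM in the members and 2072 CPM in Cre Sox9-positive cells, a ratio of 2.13 (2.09 to 2.18), so the members stood at the control level of 4301 CPM. Fabp5, a fatty acid carrier, had 857 CPM in the members, 310 CPM in Cre Sox9-positive and 1103 CPM in control Sox9-0 cells, with a ratio to Cre Sox9-positive cells of 2.77 (2.63 to 2.92). At 3000 UMIs Fabp5 was seen in 63.5% of members, 38.0% of Cre Sox9-positive and 77.5% of control cells, against 11.7% and 6.35% of the Cre and control B cell gates. Elovl1, an elongase of long fatty acids, had 692, 325 and 998 CPM in the same 3 groups, and Acoxl had 111, 31.9 and 278 CPM. Without the cluster led by haemoglobin genes, the ratios to Cre Sox9-positive cells were 1.7 for Scd1, 2.1 for Fabp5, 1.64 for Elovl1 and 2.17 for Acoxl. Of 20 measured lipid synthesis genes, 1 was called higher (Elovl1) and 18 lay above the all-gene median, with a list median of 0.20. Npw, neuropeptide W, Pla2g1b, a secreted phospholipase, and Apoc1 were the other genes named as higher, at ratios of 2.11, 1.78 and 1.73.

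Dmkn had the highest of these ratios among the named genes, 3.56 (3.1 to 4.09), and was the only one of the 8 with members far above both other groups. Its UMIs came from 212 members, and at 3000 UMIs it was seen in 18.8% of members, 6.81% of Cre Sox9-positive and 3.92% of control Sox9-0 cells, against 0.395% and 0.257% of the Cre and control B cell gates. Its ratio to Cre Sox9-positive cells was 2.68 (1.59 to 4.73), 4.25 (3.49 to 5.22) and 3.94 (3.18 to 4.90) from the lowest to the highest depth range, and 2.24 without the cluster led by haemoglobin genes.

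Among genes lower in the members, Gkn3, a gastrokine of the stomach lining, had 23.6 CPM in the members, 131 CPM in Cre Sox9-positive and 15.8 CPM in control Sox9-0 cells, a ratio to Cre Sox9-positive cells of 0.180 (0.150 to 0.216). It was seen at 3000 UMIs in 5.72% of members, 22.5% of Cre Sox9-positive and 3.56% of control cells. Gpx2 had 28.7, 96.2 and 12 CPM in these groups, with a ratio of 0.298 (0.251 to 0.354). Chia1, an acidic chitinase, had 402, 1128 and 280 CPM, with a ratio of 0.356 (0.340 to 0.373), or 0.189 without the cluster led by Cxcl5 and cell cycle genes. Mia, a secreted protein, Ak1, adenylate kinase, Bmp2, a growth factor, and Pcx, pyruvate carboxylase, had ratios between 0.472 and 0.513. The members thus lay between the other groups for each of these genes. By ratio they were nearer to control for Gkn3, Gpx2, Chia1, Ak1 and Pcx, but not for Mia, at 40.9, 86.7 and 16.2 CPM in Cre Sox9-0, Cre Sox9-positive and control Sox9-0 cells. For Bmp2, at 46.0, 89.6 and 23.7 CPM, they lay about midway between the other groups by ratio.

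Retnla, at 0.551 (0.545 to 0.556) of the Cre Sox9-positive level, was the exception in size. The members held 9513 CPM, far above the 56.8 CPM of control, and the ratio was 0.348 without the cluster led by Cxcl5 and cell cycle genes. Some of these ratios moved with depth. That of Retnla was 1.08 (1.04 to 1.12) at 3000 to under 6000 UMIs, 0.583 (0.576 to 0.591) at 6000 to under 12000 and 0.552 (0.542 to 0.563) at 12000 or more. That of Scd1 was 1.17 (1.10 to 1.24), 2.05 (2.0 to 2.1) and 2.91 (2.77 to 3.06) over the same ranges. That of Gkn3 was 0.241, 0.169 and 0.136. Since the share of Sox9-0 cells also falls with depth, the part of uncaptured Sox9 in these ratios cannot be told apart from that of the cells.

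The gene lists that stood apart from control had few genes called between the Sox9 groups. Of 16 cell cycle genes none was called, with a median of -0.27 and 3 genes above the all-gene median. Over the alternatives, leave-outs of clusters included, the cell cycle median ran from -3.14 to 0.04. Of 14 CREB genes none was called, and the median was -0.00. Ppargc1a had 33.3 CPM in the members and 59.3 CPM in Cre Sox9-positive cells, a ratio of 0.561 (0.471 to 0.668) that was not called. Of 16 chemokine and NF-kB genes, Ccl2 and Saa3 were called higher, each from few cells. Of 10 xenobiotic enzymes, Pon1 was called higher at 2.67 (1.58 to 4.65) and Fmo2 lower at 0.443 (0.353 to 0.553). Without the UMIs of the 5 highest cells of each group, Fmo2 stood at 11.9 CPM in the members and 18.1 CPM in Cre Sox9-positive cells. Of 17 AT1 genes, Rtkn2 at 0.321 (0.194 to 0.512) and Spock2 at 0.368 (0.235 to 0.564) were called lower, while Ager was at 1.36 (1.31 to 1.41). Both calls rested on few cells, since 5 Cre Sox9-positive cells held 79.7% of that group's Rtkn2 UMIs and 79.1% of its Spock2 UMIs. Without the UMIs of the 5 highest cells of each group, Rtkn2 stood at 2.97 CPM in the members and 2.50 CPM in Cre Sox9-positive cells, and Spock2 at 2.31 and 2.81 CPM. Ereg, the growth factor epiregulin, was called higher at 15.3 CPM in the members and 7.34 CPM in Cre Sox9-positive cells. Of the 93 Ereg UMIs of the members 61 lay in 5 cells, and without the UMIs of the 5 highest cells of each group the levels were 5.28 and 5.0 CPM. Of 19 oxidative phosphorylation genes none was called, and 1 lay above the all-gene median, with a list median of -0.17.

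The members were not uniform. Clustering them alone gave 5 clusters, described here by levels and left unnamed as cell types, since their leading genes chose them. The first held 219 members (29.8%) and was led by haemoglobin genes, Acoxl and Dmkn. It had 6613 CPM of Scd1, 18148 CPM of Lyz2 and 286 CPM of Dmkn, and 14757 CPM of erythroid markers, against 177 to 2363 CPM of these markers in the other clusters. Its cells had the highest Sftpb of the 5, 8579 CPM against 4391 to 7290 CPM. Few cells carried the haemoglobin, as 5 members held 57.3% of all Hbb-bs UMIs and 60.7% of all Hba-a1 UMIs of the 734. Hbb-bs was seen in 70.8% of the cells of this cluster and in 58.3% to 78.2% of those of the others. The part of erythroid RNA in these levels was not tested.

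The second cluster held 178 members (24.3%) and was led by Ereg, Atf3 and Areg. Ereg was seen in 18 of its cells, Atf3 in 154 and Areg in 149. Its immediate early genes summed to 12718 CPM, against 3662 to 6935 CPM in the other clusters. Areg stood at 1333 CPM there, against 127 to 527 CPM, and the CREB list at 4522 CPM, against 938 to 2264 CPM. Krt8 stood at 578 CPM, against 167 to 398 CPM. Without this cluster, 7 of 14 CREB genes were called higher than in control cells, the median was 0.78 and the Areg ratio was 2.29, while the immediate early median was -0.13. These leave-outs take cells from the members only and keep the comparison cells whole.

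The third cluster held 154 members (21%), led by Igfbp2, Hopx and Clic5, genes of AT1 cells, and had 1678 CPM of Ager, against 773 to 1087 CPM elsewhere. Most of its cells had no UMI of these leading genes, as Igfbp2 was seen in 10, Hopx in 41 and Clic5 in 48. Hopx was seen in 26.6% of its cells and in 11.4% to 24.7% of those of the other clusters. The fourth held 96 members (13.1%), led by Apod, Dcn and Dpep1, genes of fibroblasts. Its mesenchymal markers summed to 2152 CPM, against 30.7 to 241 CPM, and it held 6 of the 11 members called doublets. Dcn had a UMI in 12 and Col3a1 in 28 of its 96 cells, and 5 members held 83.6% of all Dcn UMIs and 53.1% of all Col3a1 UMIs of the 734. Its Scd1 was 1977 CPM and its Fabp5 247 CPM, both at the low end of the clusters. Without it the median of the chemokine list was 0.63.

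The fifth cluster held 87 members (11.9%), led by Cxcl5 and by cell cycle genes such as Rrm2, Ube2c and Top2a, and was the deepest with a median of 9548 UMIs. Most of its cells had no Cxcl5 UMI and most had no Top2a UMI, as Cxcl5 was seen in 14 and Top2a in 10. Retnla was seen in 100% of its cells and Slc26a4 in 80.5%. The cluster's Retnla stood at 29856 CPM, against 4433 to 7818 CPM in the other clusters. Slc26a4 stood at 599 CPM, against 51.3 to 142 CPM, Lcn2 at 3973 CPM, against 909 to 1772 CPM, and Chia1 at 1499 CPM, against 98.3 to 360 CPM. Scd1 was 1545 CPM there and Sftpb 4391 CPM, the lowest of the 5 clusters. Gclc, at 1929 CPM, differed less from the 1082 to 1772 CPM of the others. Its cell cycle genes summed to 1308 CPM, against 183 to 268 CPM.

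Of 13 measured cell cycle genes, 7 were called higher than in control Sox9-0 cells and none lower, against 2.97% of all measured genes called higher. The list median was 1.45. The fifth cluster held 1162 UMIs of the list, against 132 to 384 in each of the other clusters. Top2a, a topoisomerase of dividing cells, had 80 UMIs in 16 members, and Mki67, a marker of dividing cells, 57 UMIs in 24 members. Both stood below the Cre B cell gate, Top2a at 13.2 CPM in the members and 56.4 CPM in the gate. Without the fifth cluster the median of the list was -0.17, with none of 7 measured genes called higher and 1 lower. Without that cluster the ratio of members to control was 106 for Retnla, 9.71 for Slc26a4 and 10.8 for Cxcl5. The 87 cells thus raised these ratios, and the Retnla and Slc26a4 differences were present outside them.

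**Figure D5:**
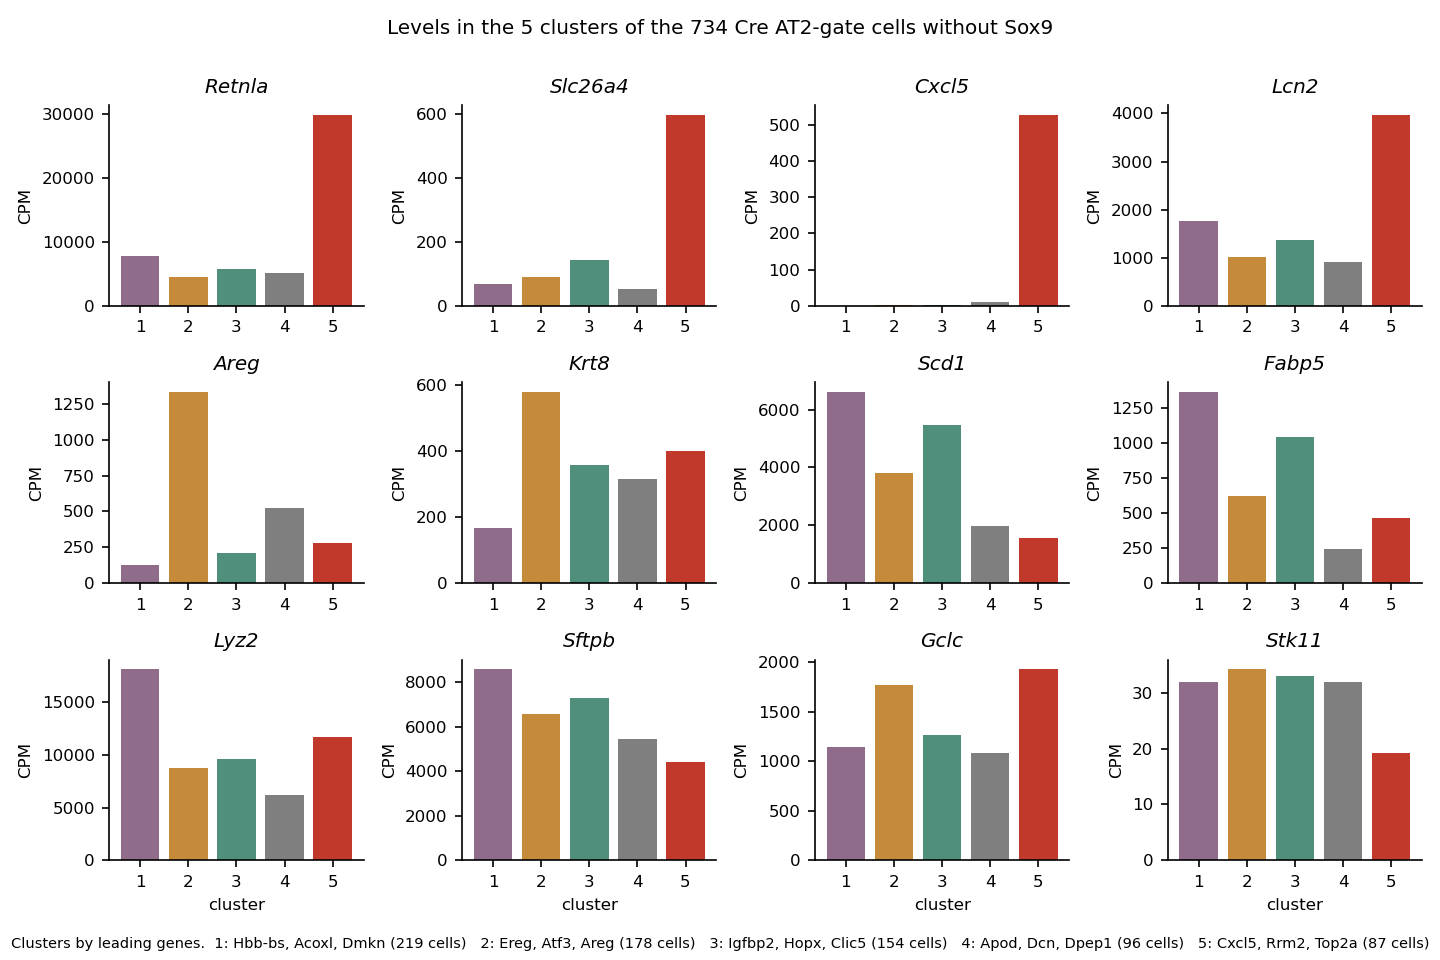
CPM of summed UMIs (y axis, a separate linear scale from 0 in each panel) of 12 genes in the 5 clusters of the members (x axis), which hold 219, 178, 154, 96 and 87 cells. Retnla, Slc26a4, Cxcl5 and Lcn2 are highest in cluster 5, Areg and Krt8 in cluster 2, and Scd1, Fabp5, Lyz2 and Sftpb in cluster 1, while Gclc lies between 1082 and 1929 CPM in all.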

How the data were processed

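Single cells from total lung were profiled with 10x Genomics 3′ chemistry, 1 library per genotype. The deposited matrices hold raw UMI counts per gene and barcode, which the authors made with Cell Ranger 3.1.0, STAR and mm10, per the submitters' processing notes; each has 31053 genes. No normalized values were used.

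Cells were gated as the report states, and counts were summed per group and expressed as CPM. The interval of a ratio treats both sums as Poisson counts and conditions on their total, and that of a share is Clopper-Pearson, each at 95% and for counting error alone. With 1 library per genotype no test was made. A gene was measured at 50 UMIs or more over both sums and called at 2-fold from the all-gene median. Doublets called by Scrublet were kept. Each cell was thinned to 3000 UMIs for shares, and no cell was left out by this. The B cell gate used the same limits on genes, UMIs and mitochondrial share. Members were clustered with scanpy 1.11.5 and leidenalg 0.10.2 (Python 3.11.15). TMM factors (edgeR 4.0.16) and size factors (DESeq2 1.42.0) served as other scalings. The ratio and call steps were tested on simulated data.

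Genes named against control are the 15 highest and 15 lowest by the interval bound nearest 1, and against Cre Sox9-positive cells the 8 highest and 8 lowest. They needed 50 UMIs over both sums and, in the group where they were higher, 50 CPM, 5 times the CPM of that library's B cell gate and 0.5 times that of its cells outside the AT2 gate. Genes of the gate, mitochondrial, ribosomal, haemoglobin, immunoglobulin, T cell receptor, predicted, sex-linked and immediate early genes were left out; members of the gene lists are named as examples, and 1 gene chosen by the rule is not reported here. The members of the group and all lists were chosen with earlier results of these data known. Positions come from the GENCODE annotation of GRCm38, which matched 30934 gene IDs, and promoters from RefSeq's GRCm38.p6 table. The alternatives changed the doublets, depth, Sftpc and mitochondrial limits, weighting of cells, low-count minimum, scaling, fold, Sox9 limit and cluster resolution.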

Additional observations from a re-analysis of the deposited data

How the results depend on the processing

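The counts of called genes against control were 304 higher and 252 lower, and against Cre Sox9-positive cells 55 higher and 91 lower. In that order they were 128, 52, 29 and 20 in cells of 3000 to under 6000 UMIs; 157, 158, 19 and 38 with cells thinned to 3000 UMIs; 2081, 2164, 1628 and 1770 with no UMI minimum per gene; and 106, 107, 11 and 26 at 200 UMIs or more. They were 86, 135, 21 and 27 among genes at 5 times the B cell gate or more, 835, 808, 253 and 349 at 1.5-fold, and 127, 81, 9 and 30 at 3-fold. At 12000 UMIs or more they were 230, 291, 24 and 97, so that 44.1% of calls against control and 19.8% of those against Cre Sox9-positive cells were higher, against 54.7% and 37.7% over all depths. The alternatives of depth, thinning, UMI minimum and B cell gate test fewer or more genes or UMIs by construction, while 1.5-fold and 3-fold keep the same genes and move the threshold. Without centring, 490 genes were higher and 157 lower than control, so that 75.7% of calls were higher, against 54.7% with centring and 68.2% (401 and 187 genes) with CPM of the UMIs other than Sftpc. TMM factors gave 303 and 253, and DESeq2 size factors 304 and 252. The share of Cre gate cells without Sox9 was 57.5% at 3000 to under 6000 UMIs, 36.9% at 12000 or more and 69.3% after thinning, and that of control cells 100% at 3000 to under 6000 UMIs. Leave-outs of clusters were chosen after seeing the data and took cells from the members only. Without the fibroblast-led cluster 168 genes, and without the cluster led by Cxcl5 and cell cycle genes 145 genes, were lower than in Cre Sox9-positive cells; the cause was not tested. Without the cluster led by Cxcl5 and cell cycle genes the cell cycle median over control was -0.17, with 7 genes measured in place of 13. Clustering gave 4 clusters at resolution 0.3 and 9 at 0.8. The Rgs4 ratio over control could not be had after thinning, which left no control UMI. Of 551 named ratios under the alternatives other than the depth ranges 80 moved beyond their interval and none reversed. Of the named ratios 1 reversed in the depth ranges, that of Retnla over Cre Sox9-positive cells. It was 1.08 at 3000 to under 6000 UMIs and 0.551 over all depths. Nupr1 and Cox6a2 were named against control only, so their ratios to Cre Sox9-positive cells are not among these. Of 624 list medians 31 moved and 1 reversed. No paired analysis was possible because each genotype has 1 library. Pooling of mice, capture of 1 library and depth limit every value, and genes with few UMIs have wide intervals.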
